A study of Mus musculus with 12 samples.

Results

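The interferon response genes described here are 42 mouse genes that interferons are known to induce or that carry their signal. They were chosen as the listed gene symbols whose mean over the 11 libraries of the authors' normalized count table was at least 10. All 42 listed symbols were in the table and met that minimum, out of 27754 genes in the table and 18400 genes at or above the minimum. By role they were 4 transcription factors, 5 sensors of nucleic acids or their partners, 5 genes of the IFIT and ISG15 system, 6 genes of the OAS family and PKR, 11 other antiviral effectors, 7 interferon-inducible GTPases and 4 genes of antigen presentation.

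RNA was sequenced from the sensory epithelium of the mouse cochlea after chemical separation from the mesenchyme and neurons beneath it, and each library held both ears of 1 pup. The mice were of mixed C57BL/6 and CD1 strain, and every pup carried the β-catenin flox(Exon3)/+ allele and was exposed to tamoxifen through the milk of its mother. Treated pups also carried Sox2-CreER, which drives Cre in cells that express SOX2, so that β-catenin was stabilized in those cells and not in the whole tissue, whereas untreated littermates carried no Cre. Groups are named by the postnatal day of the injection. P1 pups were exposed on day 1 and harvested on day 4, and P4 pups were exposed on day 4 and harvested on day 7, in both cases 72 h after the injection. The 11 libraries read here were 3 from treated and 3 from untreated pups at P1, and 2 from treated and 3 from untreated pups at P4. The P4 treated group has another replicate, number 2, which was not analysed here.

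Type I and type III interferons act through receptors coupled to the kinases JAK1 and TYK2, and bring STAT2 and IRF9 to the interferon-stimulated response element (ISRE). Interferon gamma acts through JAK1 and JAK2 and the gamma-activated site (GAS), and one of its targets is *Irf1*. The induced proteins sense viral RNA and DNA, block translation or replication of viruses, and load peptides on MHC class I. A low level of these genes is also found in uninfected tissue.

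The promoters of the members were searched for the letters of these elements, and 6 of them are shown. In each, the ISRE core lies within 156 bases upstream of the start site. The genes belong to the IFIT and ISG15 system, the GTPases or antigen presentation. Library values of *Isg15*, *Ifit1*, *Gbp3* and *B2m* follow. The windows lie upstream of the start sites, read 5′ to 3′ along the gene, with the sequences and start sites from RefSeq on GRCm38.p6. Capitals mark the ISRE core, GAAANNGAAA, or TTTCNNTTTC where the element lies on the other strand.
Isg15, chr4:156200850-156200921, minus strand: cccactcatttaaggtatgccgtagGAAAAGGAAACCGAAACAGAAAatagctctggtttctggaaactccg
Ifit1, chr19:34640760-34640838, plus strand: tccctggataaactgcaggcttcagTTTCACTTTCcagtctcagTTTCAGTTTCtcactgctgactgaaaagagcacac
Ifit3, chr19:34583348-34583441, plus strand: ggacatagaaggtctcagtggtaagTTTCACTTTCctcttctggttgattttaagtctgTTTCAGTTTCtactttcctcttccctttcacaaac
Gbp3, chr3:142559974-142560025, plus strand: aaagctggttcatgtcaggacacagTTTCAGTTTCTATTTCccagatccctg
Igtp, chr11:58199497-58199555, plus strand: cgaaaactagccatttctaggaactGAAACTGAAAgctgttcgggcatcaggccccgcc
B2m, chr2:122147523-122147582, plus strand: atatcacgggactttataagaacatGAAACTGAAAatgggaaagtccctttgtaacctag

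At least 1 promoter window of 300 bases was found for 33 of the 42 members, with 37 windows in all. A gene was counted if any of its windows held a match. The ISRE core, on either strand and with overlapping matches allowed, was found for 18 of those 33 members (54.5%). Over all genes it was found for 1079 of the 27025 with a window (3.99%). *Isg15* held 3 overlapping copies, and *Ifit1* and *Ifit3* held 2 separate copies each. The letters of the GAS, TTCNNNGAA, which read the same on both strands, were found for 11 of the 33 members (33.3%) and for 2582 of all genes with a window (9.55%). The window of *Irf1* held no ISRE core and 1 match to the GAS, from -90 to -82 bases relative to the start site. Each match is a match of letters and was not tested as a binding site.

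**Figure D1:**
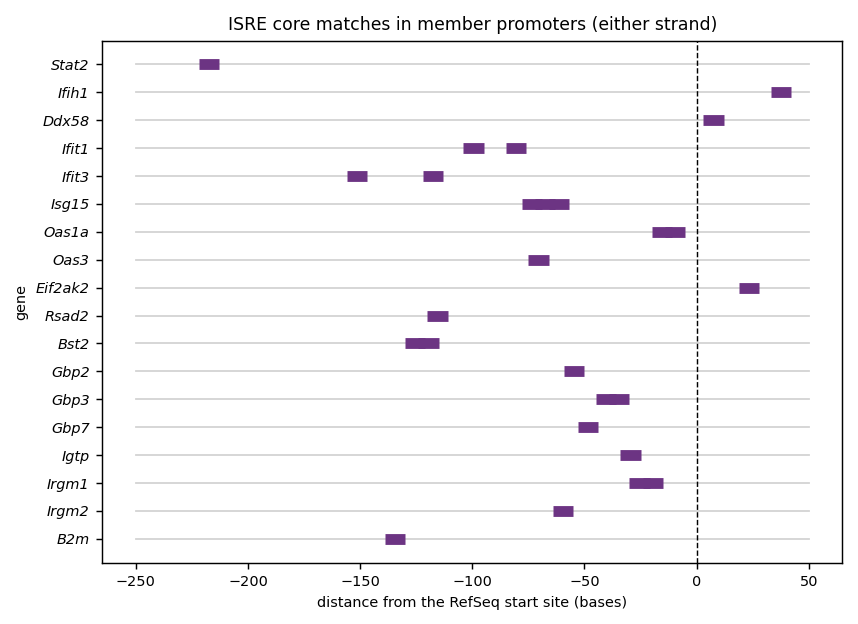
Position of each ISRE core match (purple bars) in the 300-base promoter windows (grey lines) of the 18 members that held one, as the distance in bases from the RefSeq start site (dashed line). Most matches lay upstream of the start site, and those of *Ifih1*, *Ddx58* and *Eif2ak2* lay downstream of it.

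The sum of normalized counts was 41.2 to 44.2 M per library, and the members made up 0.0360% to 0.0514% of it. Markers of hair cells and of supporting cells, the 2 cell types of this epithelium, summed to 56539 to 92335 and to 347589 to 603600 normalized counts per library, over 14 genes each. Markers of mesenchyme, from which the epithelium had been separated, summed to 142944 to 229160 over 11 genes, more than the hair cell markers. *Esr1*, whose sequence the CreER transgene shares in part, was at 368 to 594 normalized counts in the treated and at 23 to 42 in the untreated libraries, so that the libraries split as their labels do. *Ctnnb1* counts do not separate the exon that is lost. *Sox2* was called lower in P1 treated than in P1 untreated libraries (log2 fold change -0.67, adjusted p = 0.0300). At P4 it was lower without overlap and not called (-0.41). The paper names reduced *Sox2* levels in *Sox2-CreER* mice as a limitation, so the treated pups differ in *Sox2* as well as in β-catenin. *Axin2*, a biomarker of canonical Wnt signaling, was not called after treatment (-0.40 at P1 and -0.03 at P4). The sexes were not balanced between the groups. *Xist* was at 2794 to 4180 in P1 untreated replicates 2 and 3 and in both P4 treated libraries, and at 13 to 39 in the others. Sex and treatment can therefore not be told apart at P4, and sex and age cannot be told apart in the treated libraries. Within a group, *Xist* varied widely only in P1 untreated (16, 3030 and 2794). Any fit with log2 *Xist* as a covariate therefore rests mostly on replicate 1 against replicates 2 and 3 of that group. P1 treated replicate 1 stood apart from the other P1 treated libraries, with a mean log2 level of the members of 7.35 against 6.81 and 6.69. Results that rest on it are given with and without it. In bulk RNA, fewer cells of a type and less RNA per cell cannot be told apart.

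Per kilobase of annotated exon, *B2m*, the light chain of MHC class I, had the highest level of the members, with a mean of 3915 normalized counts per kilobase over all libraries. It was followed by *Bst2*, which tethers budding virions to the cell, at 606, by *Ifi35* at 521, and by *Iigp1*, a GTPase that acts on the vacuoles of parasites, at 412. *Trim25*, *Irf9*, *Eif2ak2* (PKR), *Gbp3*, *Irgm1* and *Cmpk2* lay between 218 and 151. The lowest levels per kilobase were those of *Oasl1* at 4.78, *Oas2* at 2.37 and *Oas3* at 1.63. *Isg15*, a ubiquitin-like modifier, was at 36, 22 and 26 normalized counts in the P1 treated libraries, at 62, 15 and 38 in the P1 untreated, at 18 and 10 in the P4 treated and at 31, 21 and 30 in the P4 untreated libraries. For *Isg15* the P4 treated libraries lay below the P4 untreated and P1 treated libraries and the other groups overlapped, and it was called in no comparison. The highest members of some other roles by count overlapped between all groups. *Ifit1*, which binds viral RNA without a methylated cap, was at 256, 88 and 156 in the P1 treated, at 215, 247 and 151 in the P1 untreated, at 276 and 226 in the P4 treated and at 218, 240 and 236 in the P4 untreated libraries. *Ifi35* was at 1004, 618 and 862, at 902, 766 and 955, at 795 and 1002, and at 976, 1084 and 927 in the same order of groups. Only *Gbp2* was at 0 in any library, namely in P1 treated replicate 3.

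Several members overlap another annotated gene, and the sources used here do not give whether reads were assigned by strand. *B2m* lies in the annotated span of *Patl2* on the opposite strand over its whole 5398 bases, and *Igtp* and *Irgm2* share 7974 bases on the same strand. *Irf1* shares 907 bases with an antisense gene, *Rtp4* shares 525 bases with *Masp1*, and *Tap1* shares 212 with *Psmb9*. These are overlaps of gene spans, introns included, and whether reads were shared was not tested. The genes of the IFIT, OAS and GBP families resemble each other in sequence, so that their reads may be split between relatives. Many members lie in clusters in the GENCODE annotation of mm10. *Ifit2*, *Ifit3* and *Ifit1* lie on chromosome 19 between 34550694 and 34650009, *Gbp7*, *Gbp3* and *Gbp2* on chromosome 3 between 142530342 and 142638008, and *Psmb9*, *Tap1* and *Psmb8* on chromosome 17 between 34181987 and 34201454.

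**Figure D2:**
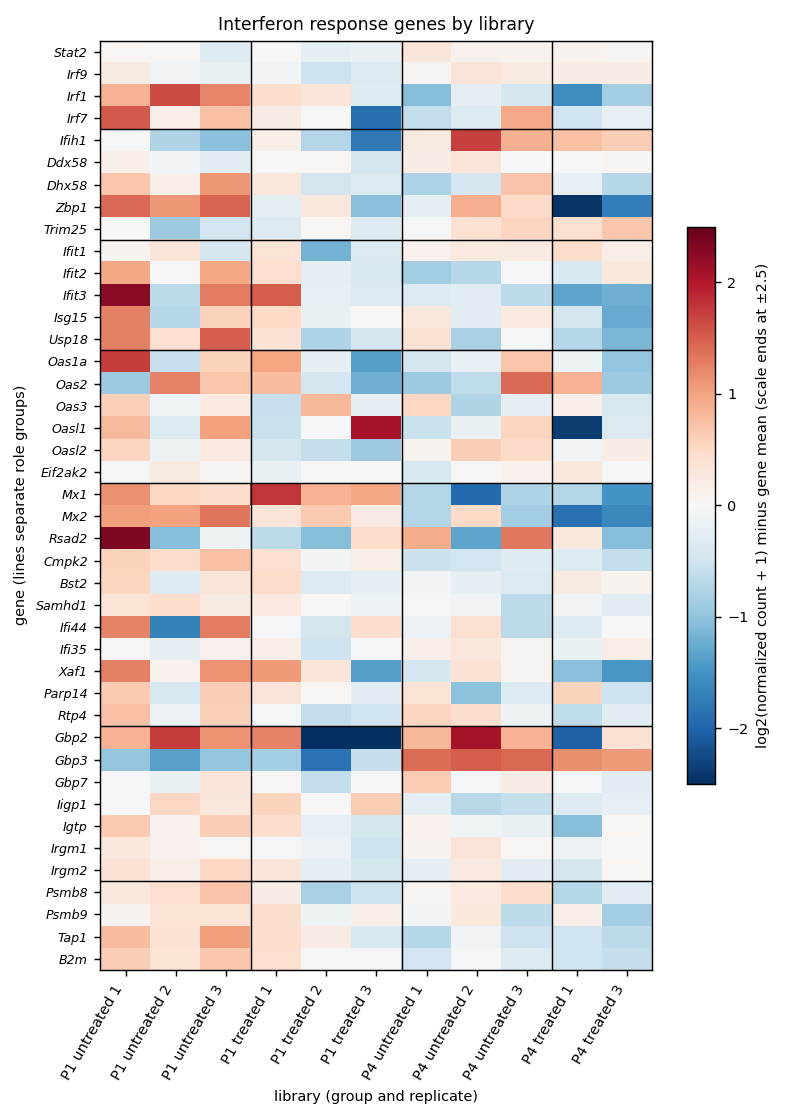
Level of each of the 42 members (rows, grouped by role) in each library (columns), as log2(normalized count + 1) minus the mean of the gene over all libraries. P1 untreated replicates 1 and 3 are mostly red (above the gene mean), P1 treated replicates 2 and 3 mostly blue (below it), and *Gbp3* is blue in all P1 and red in all P4 libraries.

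The untreated groups were compared first, to see how these genes differ between the ages without Cre. Of the 42 members, 11 were called between P1 and P4, 8 higher and 3 lower at P1. Calls needed an adjusted p under 0.05 (limma, Benjamini-Hochberg over all genes tested) as well as a minimum fold change, and 19.9% of all genes tested were called in this comparison, 10.5% higher and 9.38% lower. The median log2 fold change of the members, P1 over P4, was 0.42, beside 0.02 over all genes tested. It was 0.36, 0.65 and 0.34 without P1 untreated replicate 1, 2 and 3. Without P4 untreated replicate 1, 2 and 3 it was 0.40, 0.42 and 0.38. The groups did not overlap for 12 members that were higher and 3 that were lower at P1, beside 22% and 19.3% of all genes.

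Among the transcription factors, *Irf1* (chromosome 11, 53770014 to 53778374), which activates MHC class I and other interferon gamma targets, was at 857, 1449 and 1092 normalized counts in P1 untreated and at 223, 394 and 342 in P4 untreated libraries. All P1 libraries were above all P4 libraries, and *Irf1* was 3.55-fold higher at P1 (log2 fold change 1.83, standard error 0.30, adjusted p = 0.0025). The call held under each of the 23 alternatives tried. *Irf9* and *Stat2*, the partners in the ISRE-binding complex, and *Irf7*, which amplifies type I interferon, were not called. *Irf9*, the highest of the 4 by mean count, was at 1296, 1052 and 976 in P1 untreated and at 1169, 1400 and 1312 in P4 untreated libraries, and at 1067, 784 and 864 in P1 treated and 1273 and 1277 in P4 treated libraries.

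Of the 4 antigen presentation genes, 2 were called, both higher at P1. *B2m* was at 4944, 4079 and 5114 normalized counts in P1 untreated and at 2304, 3095 and 2522 in P4 untreated libraries, without overlap, and was 1.79-fold higher at P1 (standard error of the log2 fold change 0.15, adjusted p = 0.0039). *Tap1*, a subunit of the transporter that brings peptides to MHC class I, was at 637, 478 and 772 at P1 and at 228, 351 and 261 at P4. It was 2.24-fold higher at P1 (adjusted p = 0.0096), and lost its call when log2 *Xist* was a covariate (adjusted p = 0.0542). *Psmb8* and *Psmb9*, subunits of the immunoproteasome, were not called, with log2 fold changes of 0.22 and 0.41.

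Of the other antiviral effectors, *Cmpk2*, a mitochondrial nucleotide kinase, was at 886, 819 and 991 normalized counts in P1 untreated and at 408, 426 and 477 in P4 untreated libraries. The 2 groups were far apart, 2.05-fold higher at P1 (adjusted p = 0.0012). *Mx1* (chromosome 16, 97447035 to 97462907), a GTPase against influenza viruses, was at 142, 92 and 87 at P1 and at 38, 16 and 37 at P4, which was 3.59-fold higher at P1 (adjusted p = 0.0111). Its neighbour *Mx2* was lower in level, at 37, 36 and 45 and at 10, 25 and 9, and was 2.83-fold higher at P1 (adjusted p = 0.0301). Its groups did not overlap, but the call was lost in 8 of 22 alternatives, 5 of which left out 1 untreated library. *Samhd1*, which depletes nucleotides, just missed the threshold (log2 fold change 0.60, adjusted p = 0.0510), and *Bst2*, *Ifi44*, *Ifi35*, *Xaf1*, *Parp14*, *Rsad2* (viperin) and *Rtp4* were not called.

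The interferon-inducible GTPases were split. *Gbp3*, a guanylate-binding protein, was at 209, 160 and 210 normalized counts in P1 untreated and at 1088, 1177 and 1115 in P4 untreated libraries. It was the member with the largest distance between the ages, 5.85-fold lower at P1 (log2 fold change -2.55, standard error 0.27, adjusted p = 0.000308), under each of 23 alternatives. Its promoter window, shown above, holds 2 overlapping copies of the ISRE core. *Iigp1* was at 2297, 3283 and 2801 at P1 and at 1965, 1420 and 1518 at P4, and was 1.71-fold higher at P1 (adjusted p = 0.0163), a call that was lost in 5 alternatives. *Gbp2*, *Gbp7*, *Igtp*, *Irgm1* and *Irgm2* were not called, and *Gbp2* was at 36, 66 and 43 at P1 and at 35, 85 and 36 at P4.

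In the IFIT and ISG15 system, *Ifit2*, which binds viral RNA, was at 229, 117 and 230 normalized counts in P1 untreated and at 64, 71 and 113 in P4 untreated libraries. It was 2.27-fold higher at P1 (adjusted p = 0.0400), with P1 replicate 2 close to the highest P4 library, and the call was lost in 8 of 23 alternatives. *Usp18*, which removes ISG15 and dampens receptor signaling, was at 121, 67 and 145 and at 65, 28 and 49, without overlap, and was not called (adjusted p = 0.0695). *Ifit1*, *Ifit3* and *Isg15* were not called. Of the sensors, *Ifih1* (MDA5, a sensor of long double-stranded RNA) was at 236, 140 and 115 at P1 and at 277, 776 and 443 at P4, and was 2.91-fold lower at P1 (adjusted p = 0.0494). *Trim25*, a ubiquitin ligase that activates the sensor RIG-I, was at 1201, 630 and 855 and at 1144, 1561 and 1735, with overlap (942, 1239 and 956 in P1 treated and 1574 and 1935 in P4 treated libraries), and was 1.68-fold lower at P1 (adjusted p = 0.0443). Both sensor calls lay next to the threshold and were lost in 13 of 23 alternatives each. *Ddx58* (RIG-I), *Dhx58* (LGP2) and *Zbp1*, a sensor of Z-form nucleic acids, were not called. None of the 6 genes of the OAS family and PKR was called between the ages. *Eif2ak2*, the highest of them, was at 893, 1072 and 962 at P1 and at 712, 946 and 995 at P4, and at 809, 914 and 896 in P1 treated and 1111 and 896 in P4 treated libraries.

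The labels do not say what a replicate number shares, and the P1 and P4 pups were different animals. Deviations from the group mean correlated weakly (0.115 to 0.136) between same-numbered untreated libraries of the 2 ages, so a fit with a replicate block was also made. It called 9 members in place of 11. *Ifih1* (adjusted p = 0.0638), *Trim25* (0.1126) and *Mx2* (0.0845) lost their calls and *Usp18* gained one (adjusted p = 0.0383). With log2 *Xist* as a covariate, 5 members were called, and these were *Irf1*, *Mx1*, *Cmpk2*, *Gbp3* and *B2m*, the members whose calls held under each of the 23 alternatives.

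**Figure D3:**
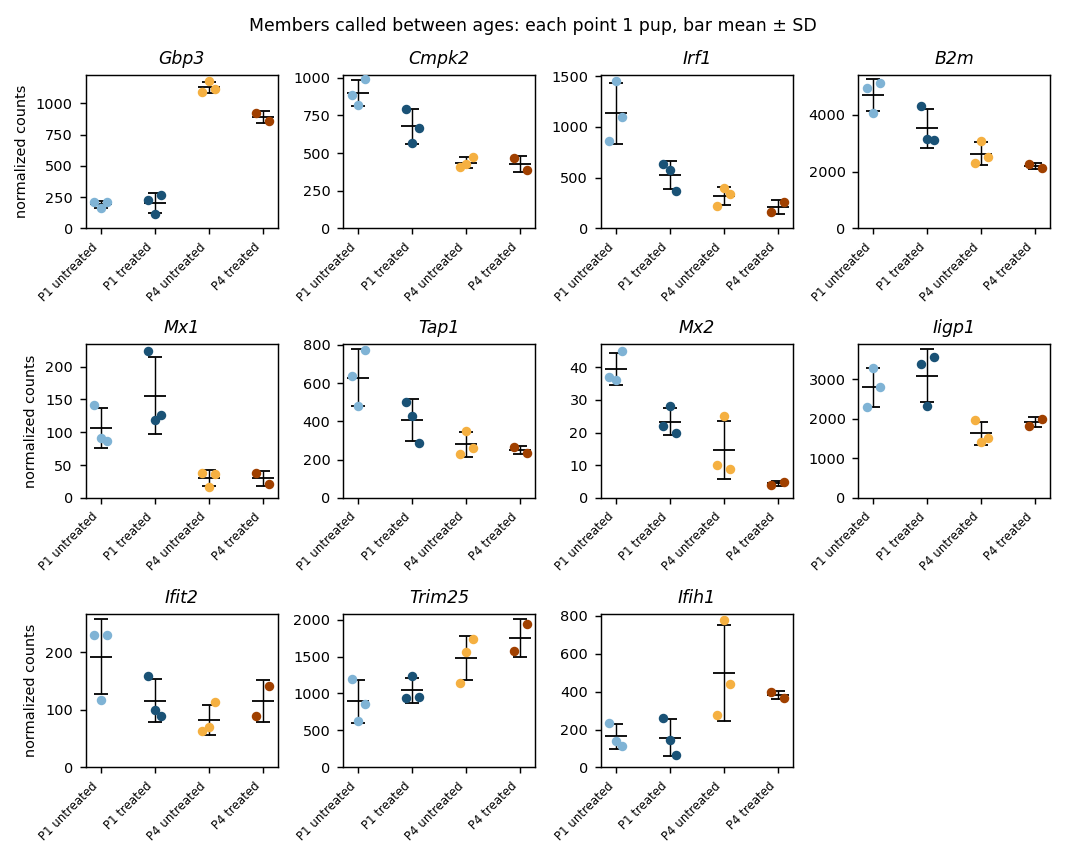
Normalized counts of the 11 members called between the ages, 1 point for each pup, with bars for the mean ± SD of each group (3 pups, or 2 for P4 treated). In *Gbp3* all P4 libraries lie above all P1 libraries, and in *Cmpk2*, *Irf1*, *B2m* and *Mx1* the P1 untreated libraries lie above the P4 untreated libraries.

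Other gene groups also differed between the untreated ages. All 10 immediate early genes listed, such as *Fos* and *Egr1*, which cells induce within minutes of many stimuli, were called higher at P1, with a median log2 fold change of 2.71 and sums of 146102 to 234496 normalized counts at P1 and 40532 to 68693 at P4. Of 18 macrophage and leukocyte markers, none was called, with a median log2 fold change of -0.01 and sums of 6370 to 8367 at P1 and 5820 to 8878 at P4. The part of the immediate early genes in the difference between ages was not tested.

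Between the treated groups, 6 members were called, 5 higher and 1 lower at P1, beside 11.1% of all genes tested (5.63% higher and 5.42% lower). The P4 treated group had 2 libraries, and both had high *Xist* whereas no P1 treated library did. The 6 were *Mx1*, *Mx2*, *B2m*, *Irf1*, *Cmpk2* and *Gbp3*, each called in the same direction between the untreated groups. The median log2 fold change of the members was 0.09, beside 0.00 over all genes, and the groups did not overlap for 10 members that were higher and 6 that were lower at P1 (21.8% and 21.3% of all genes).

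*Mx1* was at 224, 118 and 126 normalized counts in P1 treated and at 38 and 22 in P4 treated libraries, which was 5.02-fold higher at P1 (log2 fold change 2.33, standard error 0.46, adjusted p = 0.0126). *Mx2* was at 22, 28 and 20 and at 4 and 5, which was 4.40-fold higher (adjusted p = 0.0189). The P1 libraries were above the P4 libraries for both genes. *Irf1* was at 636, 576 and 365 at P1 and at 158 and 258 at P4, which was 2.52-fold higher (adjusted p = 0.0312).

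*B2m* was at 4327, 3142 and 3132 in P1 treated and at 2261 and 2117 in P4 treated libraries, which was 1.60-fold higher at P1 (adjusted p = 0.0304). *Cmpk2* was at 794, 567 and 670 and at 466 and 389, which was 1.57-fold higher (adjusted p = 0.0320). *Gbp3* was at 229, 113 and 271 at P1 and at 922 and 859 at P4, which was 4.63-fold lower at P1 (adjusted p = 0.0032). None of these groups overlapped. *Tap1* (502, 430 and 285 against 264 and 237) and *Iigp1* (3392, 2318 and 3563 against 1828 and 2001) did not overlap either and were not called. With a replicate block, and with log2 *Xist* as a covariate, none of the 6 was called. The block fit used only the groups compared, which leaves little to estimate the spread. Calls over all genes fell from 2034 to 209 with the block and to 28 with *Xist*. Neither fit can therefore tell whether these calls depend on pairing or on sex. Without P1 treated replicate 1, 4 members were called. *Irf1* (adjusted p = 0.0820), *Cmpk2* (0.0807) and *B2m* (0.0653) lost their calls, and *Irf9* was called lower at P1 (log2 fold change -0.63, adjusted p = 0.0367). Over 23 alternatives, the calls of *Irf1* and *Cmpk2* were lost in 8 each, *B2m* in 7, *Mx1* in 3 and *Gbp3* in 2. The call of *Mx2* was lost in 5 of 22. The median turned from 0.09 to -0.12 without P1 treated replicate 1. Leaving out replicate 2 or 3 of the P1 treated group gave 0.21 and 0.22, and leaving out replicate 1 or 3 of the P4 treated group gave 0.22 and 0.05. Of the 10 immediate early genes, 9 were called, all higher in the P1 treated libraries.

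The treated groups were then compared with their untreated littermates, to see whether the interferon response genes differ after stabilization of β-catenin. At P1, none of the 42 members was called, beside 0.353% of all genes (65 of 18400, 0.261% higher and 0.0924% lower). The paper called more genes after treatment at both ages, with DESeq2, so the lack of a call here is not evidence of no change. Before adjustment, 12 members with p under 0.05 were lower and none was higher in the treated libraries, beside 6.99% of all genes that were lower and 5.18% that were higher. The fitted log2 fold change was below 0 for 39 members (37 after scaling by the median of ratios or quantile normalization), beside 49.2% of all genes, and the median was -0.41, beside 0.00. The groups did not overlap for 8 members that were lower and for none that was higher (8.33% and 6.95% of all genes). Since members of 1 response tend to vary together from pup to pup, these counts are not independent observations.

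The 4 members with the smallest unadjusted p had different roles. *Irf1* was at 636, 576 and 365 normalized counts in P1 treated and at 857, 1449 and 1092 in P1 untreated libraries (log2 fold change -1.11, standard error 0.30, adjusted p = 0.176). *Oasl2*, a relative of the OAS enzymes, was at 119, 106 and 85 and at 233, 148 and 191 (log2 fold change -0.87, standard error 0.24, adjusted p = 0.176). All treated libraries were below all untreated libraries for these 2 genes. *Zbp1* was at 13, 19 and 7 and at 43, 34 and 44 (log2 fold change -1.65, standard error 0.47, adjusted p = 0.192). *Usp18* was at 64, 29 and 36 and at 121, 67 and 145 (log2 fold change -1.36, standard error 0.43, adjusted p = 0.236). These 2 groups of libraries did not overlap either, though the highest treated library of *Usp18* was within 3 normalized counts of the lowest untreated library.

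The other 8 members at an unadjusted p under 0.05 were *B2m*, *Cmpk2*, *Irgm1*, *Rtp4*, *Gbp2*, *Psmb8*, *Tap1* and *Irf7*, with log2 fold changes of -0.38 to -3.19 and adjusted p of 0.292 to 0.401. *Gbp2* was at 47, 2 and 0 normalized counts in P1 treated and at 36, 66 and 43 in P1 untreated libraries. P1 treated replicate 1 lay among the untreated values and the other treated libraries were near 0. Its log2 fold change of -3.19 was -1.75 with a pseudocount of 8, and without P1 treated replicate 1 it was -4.79 and *Gbp2* was called (adjusted p = 0.0201), the only member to be called in this comparison under any alternative. The 3 members with a log2 fold change above 0 were *Mx1* (0.51), *Trim25* (0.26) and *Iigp1* (0.14). *Mx1* was at 224, 118 and 126 in treated and at 142, 92 and 87 in untreated libraries, which overlapped.

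By role, all 4 transcription factors, all 4 antigen presentation genes, all 5 genes of the IFIT and ISG15 system and all 6 of the OAS family and PKR had a fitted log2 fold change below 0 at P1, with medians of -0.70, -0.53, -0.65 and -0.43. The other antiviral effectors had a median of -0.30 and the GTPases of -0.38. The sensors had the smallest median, -0.19, in which *Ddx58* stood at -0.07 and *Ifih1* at -0.19. None of these differences between roles was tested.

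**Figure D4:**
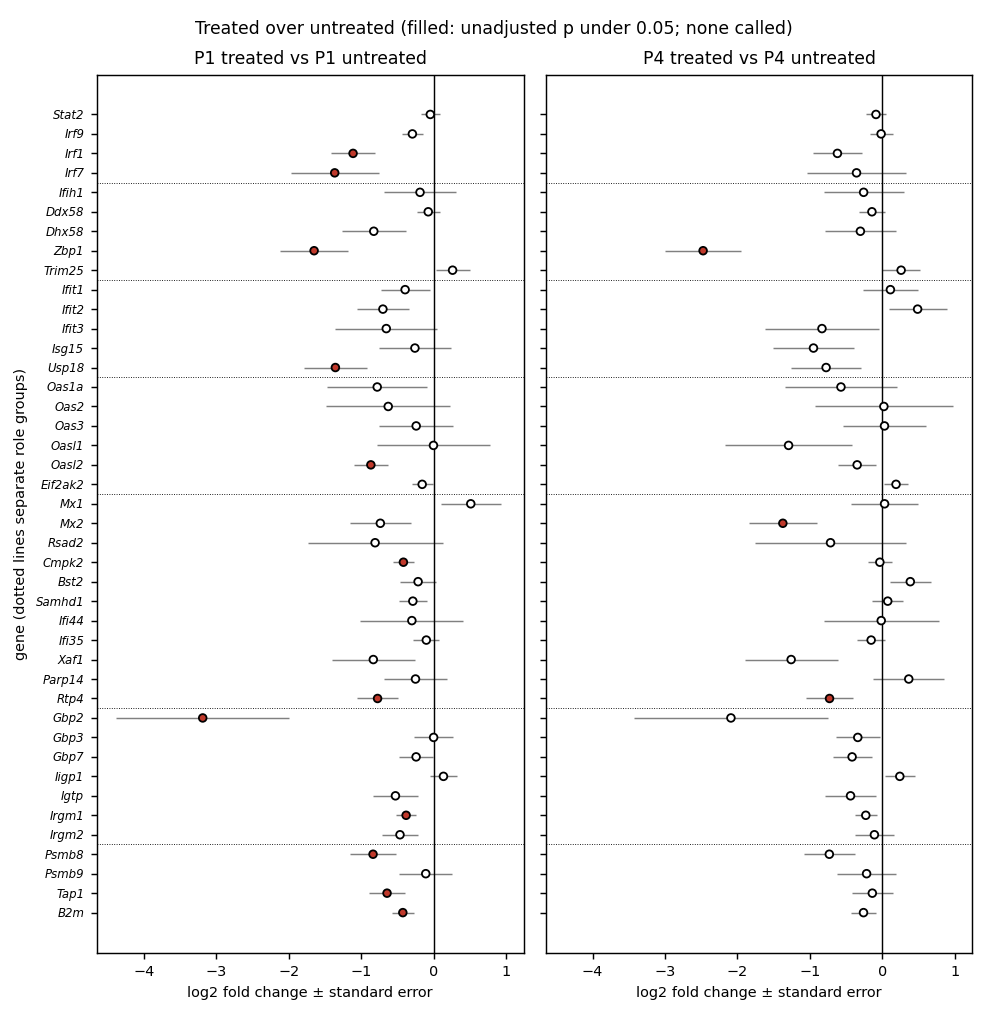
Log2 fold change, treated over untreated, of each member with its standard error at P1 (left) and at P4 (right), filled where the unadjusted p was under 0.05. At P1, 39 of 42 points lie left of 0 and 12 are filled, and at P4, 31 lie left of 0 and 3 are filled, with no member called at either age.

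Marker lists of other cells did not all move the same way in the P1 comparison. The neuron and glia list had a median log2 fold change of -0.37, the erythroid list of -0.04, and the stria vascularis and melanocyte list of 0.71. Of 18 macrophage and leukocyte markers, none was called, but 13 were lower in the treated libraries at an unadjusted p under 0.05, with a median log2 fold change of -0.96. They summed to 3143 to 5724 normalized counts in P1 treated and to 6370 to 8367 in P1 untreated libraries, and no marker was at 0 in any library. *Csf1r*, the receptor that defines macrophages, was at 943, 470 and 367 and at 1497, 1285 and 1176 (adjusted p = 0.199), again highest in P1 treated replicate 1. The 11 mesenchyme markers had a median of -0.88, of which 6 had an unadjusted p under 0.05 (5 below and 1 above 0), and summed to 142944 to 228444 and 176067 to 215356. *Lum* was the 1 called mesenchyme gene (log2 fold change 0.75, adjusted p = 0.0364). The 10 endothelial markers summed to 3050 to 4623 in P1 treated and to 7284 to 9650 in P1 untreated libraries, with a median of -0.11. The difference between these sums was that of 1 gene, *Emcn*, at 2349, 576 and 420 in P1 treated and 4537, 6760 and 7009 in P1 untreated libraries (adjusted p = 0.140). *Kdr* was at 0 in 1 library. The part of these cells in the lower member values was not tested. Without P1 treated replicate 1, the median of the members was -0.62, and with log2 *Xist* as a covariate it was -0.58. It was -0.37 and -0.31 without P1 treated replicate 2 and 3. Leaving out P1 untreated replicate 1, 2 or 3 gave -0.28, -0.55 and -0.39.

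**Figure D5:**
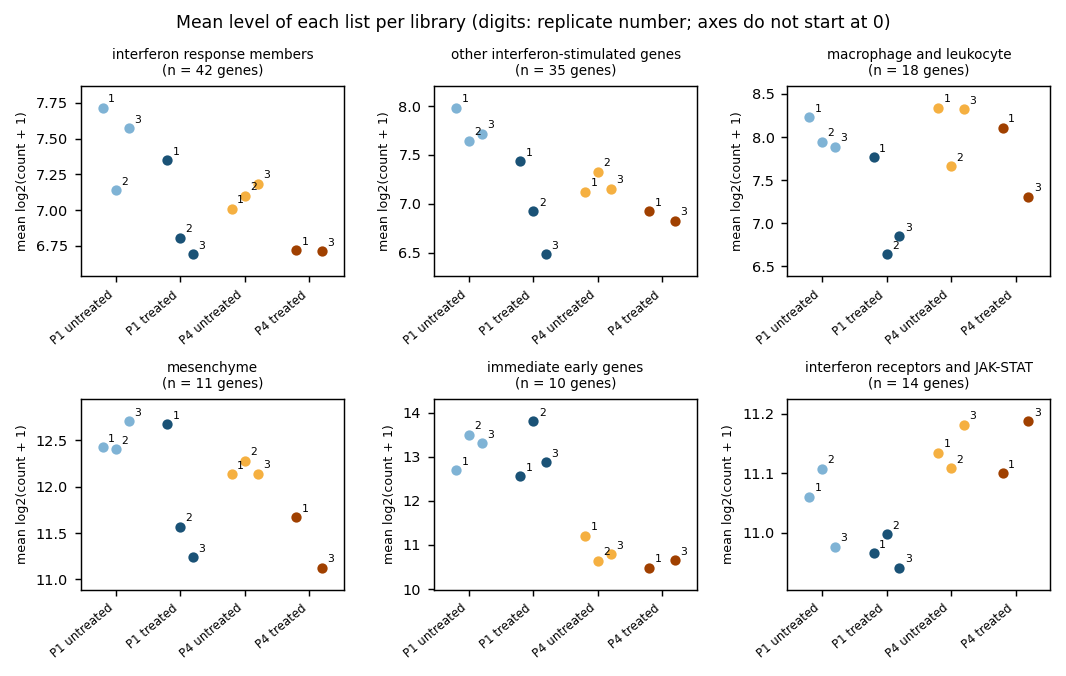
Mean log2(normalized count + 1) over the genes of each list in each library, with the replicate number beside each point and axes that do not start at 0. P1 treated replicate 1 lies above replicates 2 and 3 for the members (7.35 against 6.81 and 6.69) and likewise for the other interferon-stimulated genes, the macrophage and leukocyte markers and the mesenchyme markers.

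At P4, none of the 42 members was called between treated and untreated libraries, beside 0.0543% of all genes (10 of 18400, 0.0326% higher and 0.0217% lower). Before adjustment, 3 members with p under 0.05 were lower and none was higher, beside 5.38% and 6.26% of all genes. The log2 fold change was below 0 for 31 of 42 members, beside 49.6%, with a median of -0.24. The groups did not overlap for 12 members that were lower and for 1 that was higher, *Bst2*, beside 16.9% and 16.6% of all genes. Only 2 treated libraries entered this comparison.

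*Zbp1* was at 2 and 4 normalized counts in P4 treated and at 13, 30 and 22 in P4 untreated libraries (log2 fold change -2.47, standard error 0.52, adjusted p = 0.221). *Mx2* was at 4 and 5 and at 10, 25 and 9 (log2 fold change -1.37, standard error 0.47, adjusted p = 0.323). Both were close to the lower end of the scale, where few counts stand behind each value. *Rtp4*, a chaperone of receptors with antiviral action, was at 116 and 150 and at 261, 245 and 165 (log2 fold change -0.73, standard error 0.32, adjusted p = 0.423). *Psmb8* was at 31 and 43 and at 54, 61 and 70 (log2 fold change -0.73, standard error 0.35, adjusted p = 0.460). The treated libraries were below the untreated ones for these 4 genes, and *Zbp1*, *Rtp4* and *Psmb8* were also among the 12 members lowest by unadjusted p at P1.

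*Bst2* was at 620 and 571 in P4 treated and at 508, 448 and 414 in P4 untreated libraries (log2 fold change 0.39, standard error 0.28, adjusted p = 0.618). The macrophage and leukocyte markers had a median log2 fold change of -0.39 at P4, with none at an unadjusted p under 0.05 and sums of 4840 and 8123 in treated and 5820 to 8878 in untreated libraries. The mesenchyme markers had a median of -0.80. Their part was not tested. With log2 *Xist* as a covariate, the median of the members was -0.06. That fit takes its effect of *Xist* mostly from the P1 untreated pups, so it cannot separate sex from treatment at P4.

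Whether the effect of treatment differed between the ages was tested by the interaction of treatment and age. No member was called and none had an unadjusted p under 0.05, and limma called no gene of the 18400 tested (0%), with 2.72% above and 3.08% below 0 at an unadjusted p under 0.05. The smallest p was that of *Ifit2*, with a log2 difference between the effects of -1.19 (standard error 0.54, adjusted p = 0.856). *Ifit2* was at 158, 100 and 90 in P1 treated against 229, 117 and 230 in P1 untreated libraries, and at 90 and 141 in P4 treated against 64, 71 and 113 in P4 untreated libraries. *Cmpk2*, *Bst2* and *Eif2ak2* followed, with -0.38, -0.60 and -0.35. A difference between the ages in the effect of treatment was not detectable for any member with these libraries.

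Genes around the response were read from lists. Of 14 interferon genes, *Ifne*, *Ifnk* and *Ifnz* were in the table and none reached the minimum for testing, with highest values in any library of 1, 3 and 12 normalized counts. The other 11, *Ifnb1* and *Ifng* among them, were not analysed here. All 14 genes of the receptors and the JAK-STAT pathway were tested, and none was called between treated and untreated libraries at either age. *Ifnar1*, a chain of the type I receptor, was at 3204 to 4379 normalized counts in every library. *Jak1* alone was called between the ages, lower at P1 both in untreated (log2 fold change -0.50, adjusted p = 0.0027) and in treated libraries (-0.63, adjusted p = 0.0041).

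Of 10 brakes on the response, none was called after treatment, and the same 3 were called between the ages in each of the untreated and treated groups. *Socs3*, an inhibitor of JAK-STAT signaling, was higher at P1, at 3850, 8944 and 4688 normalized counts in P1 untreated and 679, 1058 and 536 in P4 untreated libraries (log2 fold change 2.90, adjusted p = 0.000752). *Nlrx1*, an inhibitor of the mitochondrial antiviral adaptor, was also higher at P1 (0.80, adjusted p = 0.0015), and *Socs1* was lower (-0.56, adjusted p = 0.0330). Of 15 tested genes of pattern recognition and IRF activation, *Tmem173* (STING) was higher at P1 in untreated libraries (log2 fold change 1.51, adjusted p = 0.0024) and *Tlr3* was lower at P1 in treated libraries (-0.65, adjusted p = 0.0400). None was called after treatment. Of 11 tested genes of MHC class I and peptide loading, *Psme1* was higher at P1 in untreated (0.64, adjusted p = 0.0018) and treated libraries (0.60, adjusted p = 0.0093) and *Canx* in untreated libraries (0.43, adjusted p = 0.0094).

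A second list of 42 interferon-stimulated genes, of which 35 were tested, shared no gene with the members. At P1 none was called after treatment, 14 had a lower value and none a higher one at an unadjusted p under 0.05, with a median of -0.62 on the log2 scale. The smallest p was that of *Gbp9*, a guanylate-binding protein, at 399, 157 and 67 normalized counts in P1 treated and 970, 943 and 944 in P1 untreated libraries (log2 fold change -2.55, standard error 0.60, adjusted p = 0.126). At P4 none was called, 3 had a lower value before adjustment (p under 0.05), with a median of -0.24. Between the untreated ages 6 were called higher at P1 and none was called lower, led by *Cxcl9*, a chemokine of the interferon gamma response (log2 fold change 2.76, adjusted p = 0.0029), *Ifitm2* (1.41, adjusted p = 0.0075), *Gbp9* (2.74, adjusted p = 0.0096) and *Ly6e* (0.91, adjusted p = 0.0136). *Gbp9* was at 85, 249 and 133 in P4 untreated libraries, so it was higher at P1 where its relative *Gbp3* was lower. Between the treated ages *Cxcl9* was called higher at P1 (1.96, adjusted p = 0.0389) and *Parp9* was called lower (-0.93, adjusted p = 0.0442).

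The members were also read by the ISRE core in their promoter windows. At P1, the 18 members with the core had a median log2 fold change of -0.32, treated over untreated, and all 18 were below 0. The 15 members whose windows held no core had a median of -0.42, and the 9 members with no window had -0.74. Between the untreated ages the medians were 0.11, 0.56 and 0.81. The differences between these sets were not tested.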

How the data were processed

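Alignment by the authors was to mm10 with STAR 2.5.2b, gene counts from featureCounts served quality control, and transcripts were estimated with Sailfish and compared per gene with DESeq2. The deposited value is a score, a count scaled by the size factor of its library and then rounded. The sources used here do not give which counts these were, so methods for raw counts were not used. 12 samples were described and 11 were in the table, each from 1 pup. Tests used limma 3.58.1 in R 4.3.3 (eBayes with trend) on log2(normalized count + 1), with 4 group means and 1 shared spread, in 5 comparisons. Fold changes are on that scale, which understates the change of low genes. P-values were adjusted by Benjamini-Hochberg over the 18400 genes with a mean of at least 10, and calls were made below an adjusted p of 0.05 at fold changes above 1.25. The table had 27755 entries, of which 626 carried no symbol and 1 repeated an ID and was dropped. The depth of the raw libraries was not read, so no counting error is given.

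The members, gene lists, tests and alternatives were chosen with earlier results of these data known. Values in every library of the groups compared are given for each called member. The same holds for the 4 members with the smallest unadjusted p after treatment at each age, and for *Ifit2* in the interaction. The highest member of each role is given in all libraries. Of some lists, up to 4 called genes, or the gene with the largest t, are named. Called hair cell genes, and called supporting cell genes other than *Sox2*, are not named. The neuron and glia, stria vascularis and erythroid lists are given only by their medians after treatment at P1. Values beyond this rule, such as those of *Bst2*, *Gbp2*, *Samhd1* and, in the treated groups, *Tap1*, were given after they were seen. Residuals of same-numbered libraries correlated at 0.115 to 0.136 between P1 and P4 untreated libraries, where every pair was over 0.1 and the numbers were taken as paired, and at -0.0605 to 0.0260 in the other comparisons. The script was tested on simulated data. Alternatives were other pseudocounts and minimums, eBayes without trend, only the groups compared, other scalings, a replicate block, log2 *Xist* as a covariate, other thresholds, and leaving out each library.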

Additional observations from a re-analysis of the deposited data

How the results depend on the processing

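These data are limited by 2 or 3 pups per group, by sexes that were not balanced between groups, and by low counts of many members. No log2 fold change that was called changed its direction under any alternative. Over the members' single values, 4629 kept their side of the threshold under the alternatives, 81 lost a call and 18 gained one. With log2 *Xist* as a covariate, the count of members called between the untreated ages moved from 11 to 5 and their median log2 fold change from 0.42 to 0.67, the median between the treated ages moved from 0.09 to -0.21 and the count from 6 to 0, and the median of the interaction moved from -0.16 to -0.45. The effect of *Xist* in these fits came mostly from the P1 untreated pups. Between the treated ages the count was also 0 with the replicate block, 2 with only the groups compared and 10 at an adjusted p under 0.1. Leaving out each library in turn gave 6 (without P1 untreated replicate 3) to 10 members called between the untreated ages, 1 (without P4 treated replicate 3) to 7 between the treated ages, 0 to 1 at P1 after treatment and 0 at P4 and for the interaction. It was 7 between the untreated ages without P4 untreated replicate 2 or replicate 3, and 2 between the treated ages without P4 treated replicate 1. The median of the interaction was -0.33, -0.10 and -0.06 without P1 treated replicate 1, 2 and 3, and -0.09 and -0.29 without P1 untreated replicate 1 and 2. The fit with a replicate block gave 9 members between the untreated ages and 0 in the comparisons of treatment. In every comparison, a number is all that the libraries are known to share. Outside the interaction the block fit used only the groups compared, which leaves little to estimate the spread, so calls lost in it decide little. Beyond what is stated here the cause of these changes was not tested.

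Over all genes tested, the count called at P1 after treatment was 65 and ran from 0 with the replicate block to 371 without P1 treated replicate 1, with 12 by eBayes without trend, 7 with log2 *Xist*, 10 with only the groups compared, 40 without a filter and 135 at an adjusted p under 0.1. At P4 it was 10 and ran from 2 with log2 *Xist* to 22 without P4 untreated replicate 3. Between the untreated ages 3659 became 1807 with log2 *Xist*, and between the treated ages 2034 became 28 with log2 *Xist*, 209 with the replicate block, 869 with only the groups compared, and 534 or 356 where P4 treated replicate 1 or 3 was left out. For the interaction 0 became 14 without P4 treated replicate 3.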
